A study of Mus musculus with 106 samples.

Results

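The genes described are the core of the mammalian circadian oscillator, the activators Arntl (which encodes BMAL1), Clock and Npas2 and the repressors Per1, Per2, Per3, Cry1 and Cry2. They were chosen by symbol, and all 8 were found among the 19169 genes listed in each of the 4 count tables of the series. RNA was measured in 106 libraries of 31 groups from male wild type C57BL/6J mice that were 8 weeks old at the start and lived in 12 h light and 12 h dark. Mice of the cold experiment spent 5 days each at 18 and 14 °C and then 2 weeks at 10 °C, mice of the warm experiment spent 4 weeks at 34 °C, and the controls of each stayed at 22 °C. At 10 °C, 11 tissues were compared with their own controls, with 3 libraries a group in interscapular brown fat (iBAT), inguinal subcutaneous fat (ingSAT), perigonadal visceral fat (pgVAT), liver, ileum, spleen, brain and hypothalamus, 6 in bone marrow and 5 in spinal cord. Quadriceps had 3 libraries at 10 °C, 3 at 34 °C and 6 at 22 °C, which the labels do not divide between the experiments. At 34 °C, iBAT, liver, ileum and brain had 3 libraries a group with 3 controls of their own. A library pooled tissue of 2 mice, except in bone marrow and spinal cord, where it came from 1 mouse, and in the iBAT of the warm experiment, where the sources give the pooling in different ways. The mice of the cold and warm experiments came from different suppliers, and the time of day of tissue collection is not given in the sources used here. The labels give an age of 11 weeks for the cold experiment outside quadriceps. They give 12 weeks for the warm experiment and for all quadriceps libraries.

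The clock of a mammalian cell is a feedback loop of transcription. BMAL1 pairs with CLOCK, or with its close relative NPAS2, and the pair binds E-boxes to activate the Per and Cry genes, whose proteins return to the nucleus and shut the pair off. A further loop runs through the REV-ERB repressors (Nr1d1, Nr1d2), which hold down Arntl, Npas2, Clock and Cry1 at ROR elements, and through the PAR bZIP activators DBP, TEF and HLF, which act on D-boxes in genes such as Per3. Over a day, Arntl and Npas2 RNA therefore peak at roughly the opposite phase to Per3 and Dbp RNA in peripheral tissues, and the level of a clock gene depends on the hour at which a tissue is taken. The suprachiasmatic nucleus of the hypothalamus sets the phase of the tissues from light, while feeding, glucocorticoids and temperature reach the peripheral clocks more directly.

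The promoters of Per3, Cry1 and Per1 are shown as examples of windows that hold some of the searched motifs. The 250 bases before the start of transcription are given 5′ to 3′ on the strand of the gene, from RefSeq (GRCm38.p6), with the searched motifs in capitals.
Per3, chr4:151044666-151044915, minus strand: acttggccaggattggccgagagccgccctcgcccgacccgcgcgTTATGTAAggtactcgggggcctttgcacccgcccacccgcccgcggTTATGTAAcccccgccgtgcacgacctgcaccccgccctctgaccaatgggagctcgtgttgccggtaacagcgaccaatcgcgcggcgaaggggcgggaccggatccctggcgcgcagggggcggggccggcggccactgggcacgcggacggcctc
Cry1, chr10:85185055-85185304, minus strand: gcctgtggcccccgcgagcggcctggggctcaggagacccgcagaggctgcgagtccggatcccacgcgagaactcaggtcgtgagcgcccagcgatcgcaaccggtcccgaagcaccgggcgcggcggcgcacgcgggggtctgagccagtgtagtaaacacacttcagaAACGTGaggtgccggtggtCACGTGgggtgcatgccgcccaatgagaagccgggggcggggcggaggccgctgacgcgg
Per1, chr11:69098699-69098948, plus strand: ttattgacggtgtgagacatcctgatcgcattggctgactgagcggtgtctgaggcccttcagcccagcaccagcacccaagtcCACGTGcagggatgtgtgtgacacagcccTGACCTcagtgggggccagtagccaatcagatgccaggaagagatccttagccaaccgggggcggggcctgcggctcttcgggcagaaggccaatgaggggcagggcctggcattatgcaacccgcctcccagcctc
The motifs searched on both strands were the E-box CACGTG, the E-prime box CACGTT, the D-box TTATGTAA and the ROR element AGGTCA, which occur in 6.02%, 3.85%, 0.819% and 14% of 32851 promoter windows of this length. Per3 held 2 D-boxes, at -205 and -158 from the start. Cry1 held an E-box at -60 and an E-prime box on the other strand at -79, and Per1 an E-box at -166 and a ROR element on the other strand at -137. Another Per1 window, not shown, held none of the searched letters. Cry2 had an E-prime box at -166, one of the 3 Clock windows a ROR element at -119, and the windows of Arntl and Npas2 none of the searched letters. A match describes the sequence only, and no binding was measured. Of the 8 genes, 7 had a window; Per2 is named only.

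In the mm10 genome (GRCm38) the genes lie apart from one another, Arntl at chr7:113207465-113314126, Clock at chr5:76209868-76304792, Npas2 at chr1:39193731-39363236, Per1 at chr11:69095217-69109960, Per2 at chr1:91415982-91459324, Per3 at chr4:151003652-151044665, Cry1 at chr10:85131700-85185064 and Cry2 at chr2:92403646-92434043. All of Per3 lies within Camta1 on the same strand, and Cry2 overlaps the noncoding D930015M05Rik on the opposite strand over 23417 bases. These are overlaps of whole gene spans. Overlap of exons was not examined, so whether reads of these pairs were hard to tell apart in counting is not known. Values are CPM, the share of a library's counts on a common scale, normalised by TMM (which aligns libraries on the bulk of their genes) within each comparison, and log2 fold changes are given ± SE from edgeR's quasi-likelihood test. A gene was called where the p adjusted by Benjamini-Hochberg over all genes tested was under 0.05. The authors' limits, an unadjusted p of at most 0.05 with a change above 1.5-fold, were read as a second rule. Mice shared a cage with 1 other mouse, and since the sources do not tie cages to libraries, p-values measure the spread between these libraries.

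Libraries held 4262403 to 62880248 counts (median 21585677). The defining markers of each tissue were high in its libraries, such as Alb, Apoa1 and Ttr in liver (55420.3 to 61897 summed CPM at 22 °C in the cold experiment) and Ucp1, Cidea and Adipoq in iBAT (7803 to 12837). A few libraries stood apart from their group. In the cold experiment, 22 °C replicate 2 of brain held 58529 CPM of the liver markers, against 736 to 1102 in the other brain libraries. In pgVAT, 10 °C replicate 2 held 2.23 CPM of the epididymis markers, against 16248 and 17658 in the other cold libraries. One quadriceps control held 721 CPM of the pancreas markers, against at most 3.59 in the other controls, and 10 °C replicate 4 of spinal cord held 15689 CPM of the nervous tissue markers, against 19735 to 20209. Effects in these tissues are given with and without the library. Spleen libraries also ran from 14.8 to 1475 CPM of the pancreas markers, and their values are given with the spleen effects. The 4 hypothalamic markers were at 566 to 603 CPM in hypothalamus and 5.16 to 7.82 in brain, and the suprachiasmatic markers Vip, Avp, Prok2 and Rgs16 summed to 180.3 to 204 CPM in the 22 °C and 217 to 359 in the 10 °C hypothalamus libraries. In liver of the warm experiment the same list summed to 131 to 229 CPM at 22 °C and 105 to 280 at 34 °C, with 3 of its genes at 0. The sum is therefore not particular to that nucleus, and its part in the result was not tested.

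Over the 11 tissues at 10 °C, 9 of 87 gene and tissue pairs passed the adjusted test, 5 higher and 4 lower, against 3.31% of all such pairs, and 24 passed the authors' limits, 13 higher and 11 lower, against 4.94%. All 9 were in iBAT, ingSAT and bone marrow. In iBAT and ingSAT the called activators and Cry1 were higher and the called Per gene, Per3, was lower. Arntl had a positive log2 fold change in 9 of 11 tissues, Cry1 in 9 of 11 and Npas2 in 9 of the 10 where it was tested, and Per1 and Per3 a negative one in 9 of 11 each. The tissues are from the same mice in part and are not replicates of each other.

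**Figure D1:**
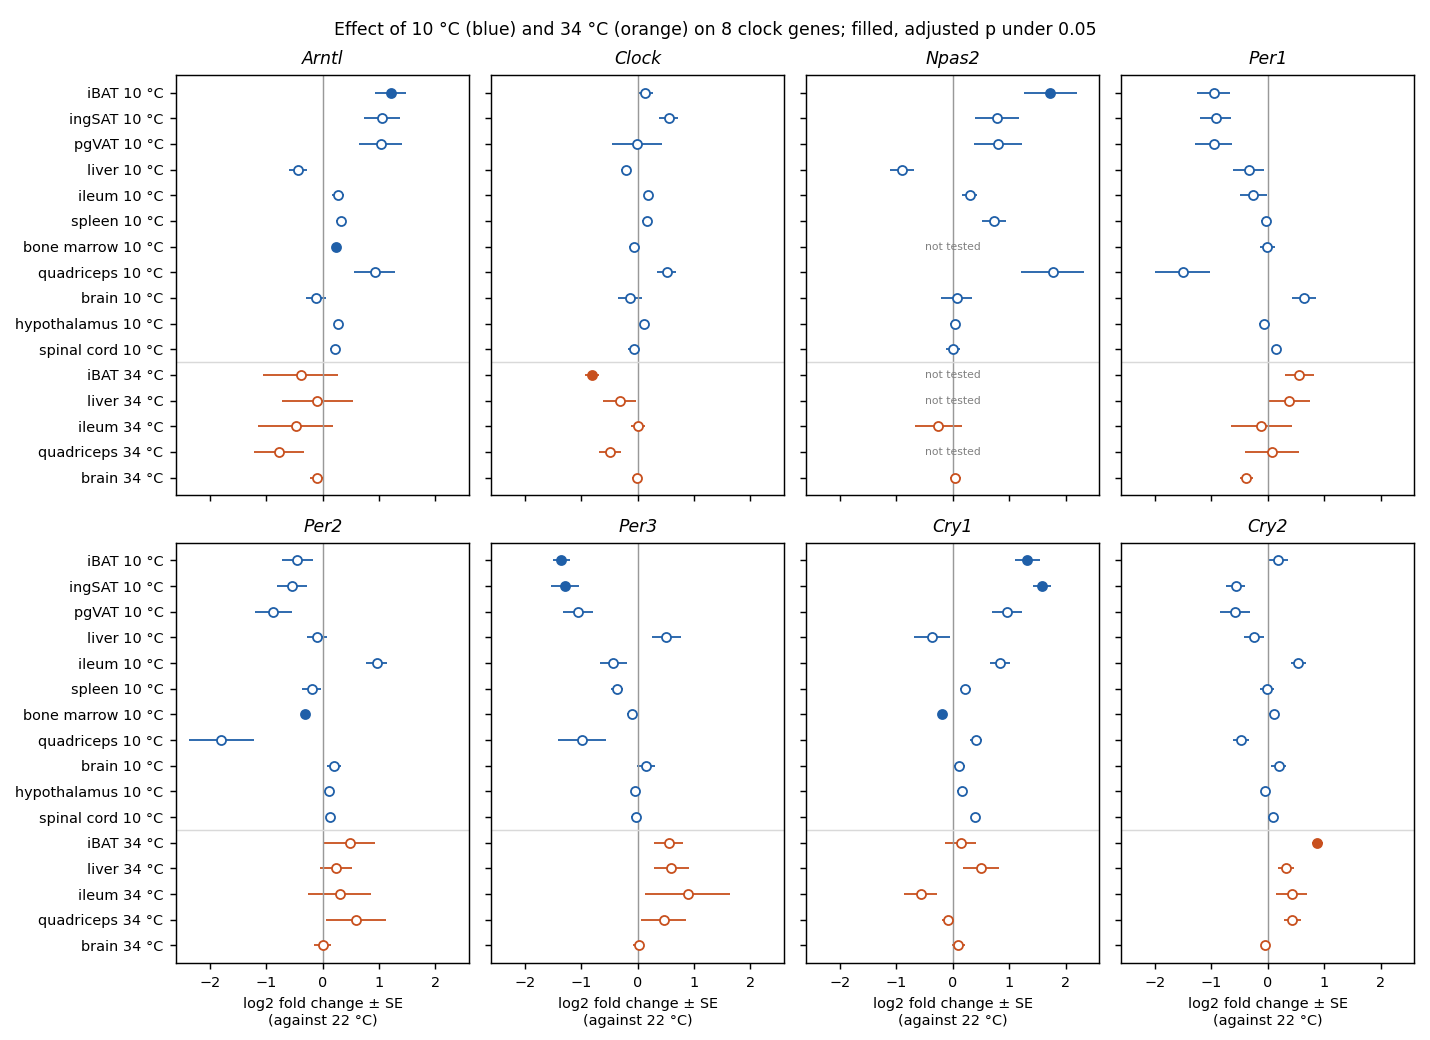
Log2 fold change ± SE of the 8 clock genes (1 panel each) in the 11 tissues at 10 °C and the 5 tissues at 34 °C, each against its own 22 °C libraries. Quadriceps is set against the same 6 libraries of 22 °C at both temperatures. Filled points have an adjusted p under 0.05, and a vertical line marks 0. Per3 in iBAT at -1.36 and Cry1 in ingSAT at 1.58 are among the filled points, while every liver point at 10 °C is open.

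In iBAT, the thermogenic fat, Arntl, Npas2 and Cry1 rose and Per3 fell at 10 °C. These were 4 of 8 genes by the adjusted test (5 by the authors' limits), against 11.4% of all genes tested (13.3% by the limits). Arntl, the activator without which the loop stops, was at 26.8, 15.2 and 11.3 CPM at 22 °C and 43.1, 44.1 and 35.3 CPM at 10 °C. Every cold library was above every control library, where groups did not overlap for 33.1% of all genes tested in iBAT at 10 °C. Arntl rose by 1.21 ± 0.28 (2.31-fold, adjusted p = 0.0252, n = 3 and 3). Npas2, the alternative partner of BMAL1, was at 3.31, 1.06 and 0.793 CPM at 22 °C and 5.002, 6.83 and 4.33 CPM at 10 °C. It rose by 1.73 ± 0.47 (adjusted p = 0.0465) from controls of which 1 was well above the others. Clock showed no such shift, with 200.05, 172 and 175 CPM at 22 °C and 224, 176 and 204 CPM at 10 °C and a log2 fold change of 0.14 ± 0.13 (adjusted p = 0.553).

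Among the repressors in iBAT, Per3 was at 68.9, 93.6 and 75.9 CPM at 22 °C and 34.5, 26.4 and 32.8 CPM at 10 °C. The groups lay far apart, and Per3 fell by 1.36 ± 0.15 on the log2 scale (2.56-fold lower, adjusted p = 0.00118). Cry1, the slower and stronger of the Cry repressors, was at 15.7, 14.7 and 10.3 CPM at 22 °C and 27.8, 44.01 and 30.3 CPM at 10 °C. It moved against Per3 and rose by 1.32 ± 0.22 (adjusted p = 0.00695). Per1, which also answers to acute signals, was at 23.3, 26.1 and 29.3 CPM at 22 °C and 8.07, 21.2 and 11.98 CPM at 10 °C, a difference of -0.96 ± 0.29 that passed the authors' limits and missed the adjusted test (adjusted p = 0.0673). Per2 (-0.45 ± 0.28) and Cry2 (0.18 ± 0.17) overlapped between the groups. Leaving out each library in turn, Per3 and Cry1 stayed called in 6 of 6 fits, Arntl lost its call in 3 of 6 and Npas2 in 5 of 6. Skeletal muscle markers summed to 4793 to 6208 CPM at 22 °C and 1745 to 3946 at 10 °C in these libraries, and liver markers to 39.5 to 74.2 and 0.127 to 0.752, and their part in the result was not tested. In bulk tissue, fewer cells of a type and less RNA per cell cannot be told apart.

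In ingSAT, the white depot under the skin, Cry1 rose and Per3 fell, 2 of 8 genes against 7.51% of all genes tested, and 4 passed the authors' limits against 16.3%. Cry1 was at 7.34, 8.17 and 7.27 CPM at 22 °C and 23.5, 19.5 and 24.9 CPM at 10 °C, a nearly constant level in each group. It rose by 1.58 ± 0.16 (2.98-fold, adjusted p = 0.00598). Per3 was at 70.3, 128 and 126 CPM at 22 °C and 48.8, 36.2 and 47.6 CPM at 10 °C and fell by 1.29 ± 0.25 on the log2 scale (adjusted p = 0.0306). Arntl was at 40.8, 18.5 and 18.2 CPM at 22 °C and 57.4, 54.1 and 48.4 CPM at 10 °C, so the groups did not overlap but 1 control came close to the cold libraries. That control, 22 °C replicate 1, also had the lowest Per3 and the highest Npas2 of its group (9.91, 3.91 and 3.96 CPM of Npas2). Arntl (1.05 ± 0.32, adjusted p = 0.0904) and Per1 (-0.92 ± 0.27, adjusted p = 0.0842) passed the authors' limits only. Clock (0.55 ± 0.17) and Cry2 (-0.57 ± 0.17) did not overlap between the groups either and passed neither rule, and Npas2 (0.79 ± 0.39) and Per2 (-0.54 ± 0.26) overlapped. Groups did not overlap for 32.8% of all genes tested here. The exact test of edgeR and DESeq2 each called 6 of the 8 genes here. Per3 lost its call in 4 of 6 fits with a library left out and Cry1 in 1 of 6. Other markers moved in the same libraries. Ucp1, the uncoupling protein of thermogenic fat, went from 8.29 to 1327 CPM (adjusted p = 0.00460) and Cidea from 85.7 to 549.7 (adjusted p = 0.00392). The bone marrow markers were at 17.7 to 35.3 CPM at 22 °C and 5.17 to 10.7 at 10 °C, and the skeletal muscle markers at 818 to 2241 and 16.4 to 1221, and their part was not tested.

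In pgVAT, the fat around the gonads, Arntl, Npas2 and Cry1 had positive and the 3 Per genes negative differences, the signs they had in iBAT and ingSAT, but 0 of 8 genes passed the adjusted test in edgeR, where 0% of all genes did. At an unadjusted p under 0.05 there were 5 genes, the exact test called 0 and DESeq2 1 (Per3). The authors' limits took those 5, against 7.96% of all genes. Per3 was at 117, 144 and 154 CPM at 22 °C and 91.7, 57.4 and 58.2 CPM at 10 °C, with every cold library below every control (-1.06 ± 0.27, adjusted p = 0.593). Cry1 was at 9.55, 9.02 and 7.92 CPM at 22 °C and 15.8, 21.7 and 15.7 CPM at 10 °C, with every cold library above (0.96 ± 0.26). Of all genes tested in pgVAT, 11.9% had groups without overlap. Arntl was at 35.5, 17.2 and 15.04 CPM at 22 °C and 44.6, 61.8 and 35.5 CPM at 10 °C, where the lowest cold and the highest control library nearly met (1.03 ± 0.38). Per1 differed by -0.96 ± 0.33, Per2 by -0.87 ± 0.33, Npas2 by 0.80 ± 0.43, Cry2 by -0.59 ± 0.27 and Clock by -0.02 ± 0.44. Markers of the neighbouring epididymis ran from 498 to 2624 CPM at 22 °C and from 2.23 to 17658 at 10 °C, and their part was not tested. Without 10 °C replicate 2, the cold library nearly free of them, Arntl was at 0.74 ± 0.37, Npas2 at 0.31 ± 0.38, Per3 at -0.97 ± 0.31 and Cry1 at 0.76 ± 0.26. Then 0 of 8 genes passed the adjusted test against 8.78% of all genes, and 4 the authors' limits (Per1, Per3, Cry1 and Cry2) against 23.4%. The cold libraries kept in this fit were those rich in epididymis markers. Their white fat markers were at 3720 and 2647 CPM, against 7412 in replicate 2 and 5939 to 8598 in the controls. The fit without replicate 2 therefore cannot show the effect in fat free of epididymis.

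In liver, Arntl, Npas2 and Cry1 had negative and Per3 a positive difference, the reverse of their signs in the 3 fat depots, while Per1 (-0.34 ± 0.28) and Per2 (-0.10 ± 0.17) had the same sign as there. Liver was not tested against fat alone. Here 0 of 8 passed the adjusted test in edgeR, against 0% of all genes, 3 had an unadjusted p under 0.05, and the exact test and DESeq2 each called 1 (Npas2). Npas2 was at 13.4, 8.101 and 9.38 CPM at 22 °C and 6.44, 5.85 and 4.32 CPM at 10 °C, lower in every cold library (-0.91 ± 0.21, p = 0.00211 and adjusted p = 0.117 in edgeR), the only one of the 8 past the authors' limits, which 3.28% of all genes passed. Arntl was at 60.5, 47.6 and 51.98 CPM at 22 °C and 40.999, 47.4 and 30.4 CPM at 10 °C, again with no overlap (-0.44 ± 0.15, adjusted p = 0.186). Such a lack of overlap was found for 24.2% of all genes tested in liver. Clock had a smaller difference of the same sign, -0.22 ± 0.08. Per3 was at 6.33, 4.14 and 5.43 CPM at 22 °C and 4.91, 7.51 and 10.1 CPM at 10 °C, with the upper cold libraries above the controls and the lowest within their range (0.51 ± 0.26). Cry1 was at 35.5, 21.96 and 32.04 CPM at 22 °C and 18.1, 37.1 and 14.3 CPM at 10 °C, a wide spread in the cold group that spans the controls (-0.38 ± 0.32), and Cry2 overlapped too (-0.25 ± 0.17). The liver markers summed to 55420.3 to 61897 CPM at 22 °C and 79225 to 82262 at 10 °C.

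The 8 tissues of the cold table were fitted together to ask whether the effect of 10 °C differed between tissues. It did for 7 of the 8 genes, all but Clock, against 16.2% of all genes tested. The adjusted p of this interaction was 0.000561 for Per3, 0.00111 for Cry1, 0.00861 for Per2, 0.0163 for Arntl, 0.0191 for Npas2, 0.0209 for Per1, 0.0250 for Cry2 and 0.621 for Clock. The same 7 passed with the doubtful brain library left out. For Arntl, Clock, Npas2 and Cry1 the effect in liver was below that in each of the 7 other tissues, and for Per3 it was above each of them.

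Setting liver against the mean of the other 7 tissues gave a difference of -1.11 ± 0.25 log2 units for Cry1, 1.14 ± 0.27 for Per3, -1.53 ± 0.38 for Npas2 and -1.01 ± 0.29 for Arntl. These 4 had an unadjusted p under 0.05 and none passed the adjusted test in edgeR, the single tool run for this contrast (adjusted p = 0.0826, 0.101, 0.122 and 0.234), where 0.0441% of all genes did. Without 22 °C replicate 2 of brain, Cry1 (-1.1) and Per3 (1.17) passed, both at an adjusted p of 0.0463. Cry1 also passed without 10 °C replicate 2 (-1.62, adjusted p = 0.000484) or 22 °C replicate 2 of liver (-1.3, adjusted p = 0.0214), and Per3 without 10 °C replicate 1 of liver (1.37, adjusted p = 0.0437). Whether liver stood apart thus turned on single libraries.

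**Figure D2:**
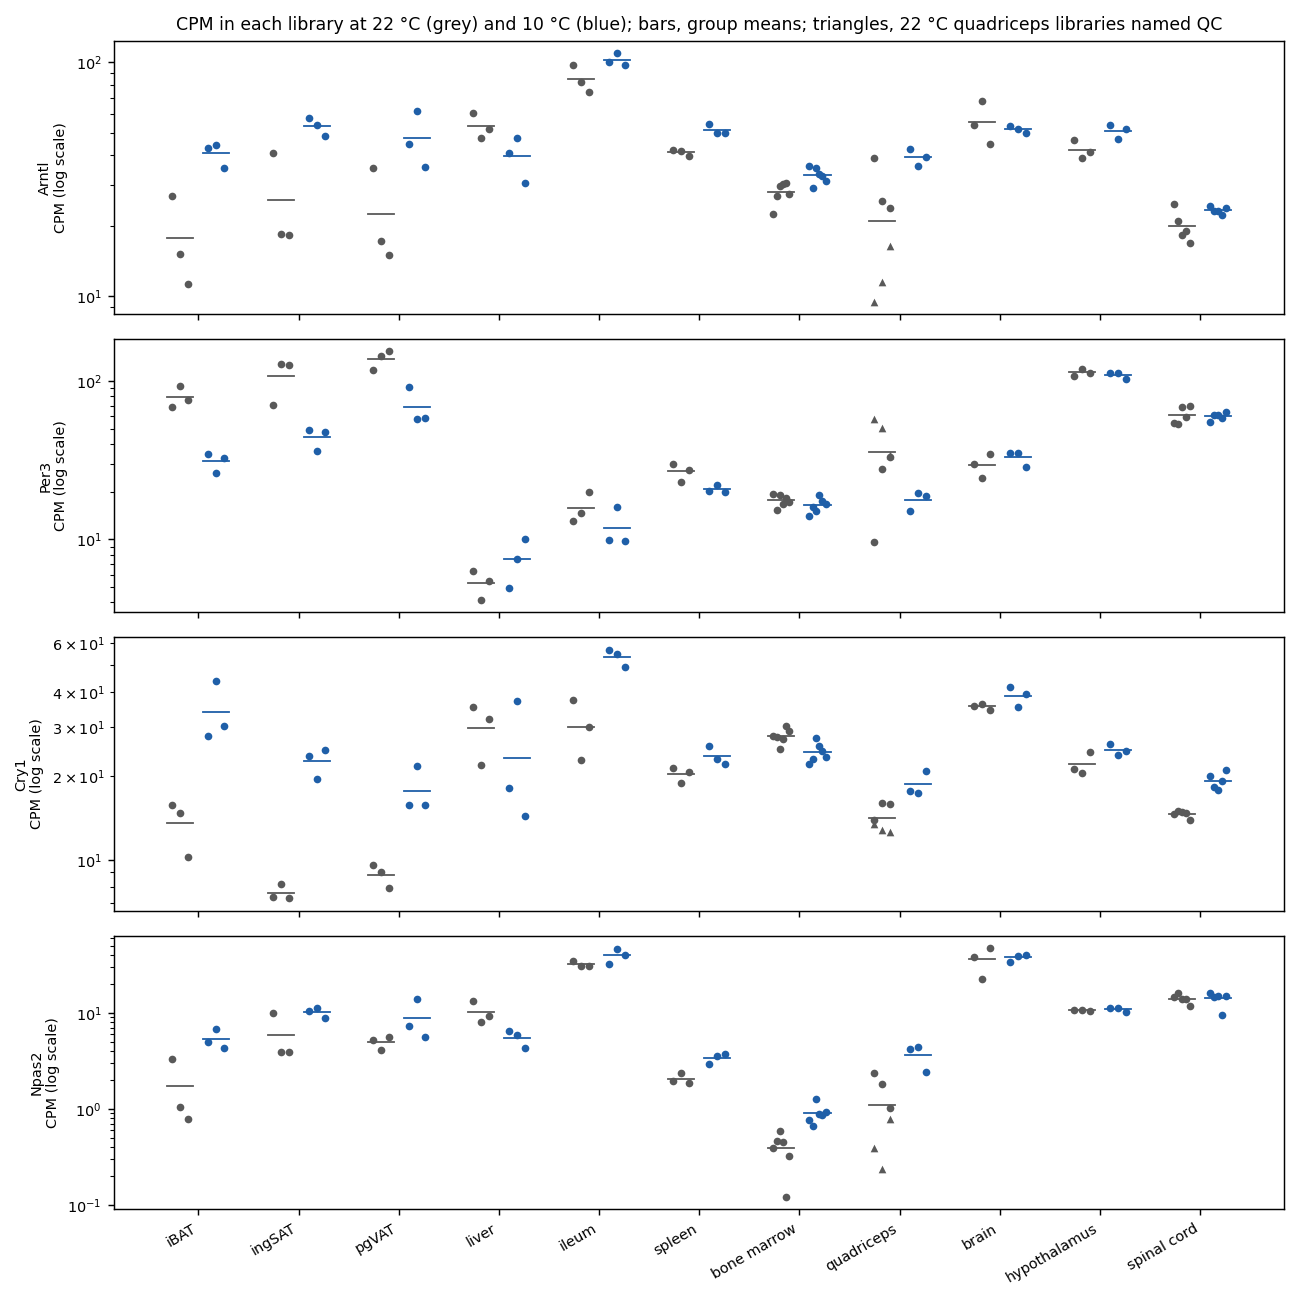
CPM (log axis) of Arntl, Per3, Cry1 and Npas2 in every library of the 11 tissues of the 10 °C comparison, with 22 °C and 10 °C libraries in different colours and triangles for the 3 quadriceps controls whose column names carry the prefix of the 34 °C libraries. Arntl, Cry1 and Npas2 of the cold libraries lie above the controls in iBAT, and in liver Arntl lies below (controls 47.6 to 60.5 CPM, cold 30.4 to 47.4 CPM).

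In ileum Arntl, Per2, Cry1 and Cry2 had positive differences at 10 °C. No gene of the 8 passed the adjusted test in edgeR (0 of 8, against 0.0639% of all genes), 4 had an unadjusted p under 0.05, and the exact test called 2 (Per2 and Cry1) and DESeq2 3 (with Cry2). Per2 was at 35.7, 20.6 and 27.3 CPM at 22 °C and 55.9, 51.3 and 55.3 CPM at 10 °C, a gap between the groups (0.96 ± 0.18, adjusted p = 0.0913). Cry1 was at 37.5, 22.7 and 29.9 CPM at 22 °C and 56.9, 55.1 and 49.2 CPM at 10 °C (0.84 ± 0.17, adjusted p = 0.0998). Both passed the authors' limits, which 2.71% of all genes passed, and Cry2 (0.54 ± 0.13) was also without overlap, as were 23.5% of all genes tested in ileum. Arntl was at 97.004, 81.9 and 74.5 CPM at 22 °C and 99.9, 109 and 97.01 CPM at 10 °C, its lowest cold library level with its highest control to 3 digits (0.27 ± 0.10). Per3 (-0.43 ± 0.24), Per1 (-0.26 ± 0.23) and Npas2 (0.30 ± 0.13) overlapped, and Clock did not (0.18 ± 0.08). The liver markers Alb, Apoa1 and Ttr, of which ileum expresses Apoa1 itself, summed to 2459 to 2658 CPM at 22 °C and 4065 to 5131 at 10 °C, with the part not tested.

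In spleen, 0 of 8 genes passed the adjusted test in edgeR, against 0.0779% of all genes, with 3 at an unadjusted p under 0.05 and 0 called by the exact test or DESeq2. Arntl was at 42.2, 41.6 and 39.9 CPM at 22 °C and 54.3, 49.9 and 49.8 CPM at 10 °C, a small gap in tight groups (0.32 ± 0.08, adjusted p = 0.485). Npas2, at 1.96, 2.38 and 1.87 CPM at 22 °C and 2.96, 3.59 and 3.76 CPM at 10 °C, was past the authors' limits (0.73 ± 0.22; 2.68% of all genes). Per3 was at 29.9, 23.2 and 27.5 CPM at 22 °C and 20.3, 21.9 and 20.002 CPM at 10 °C, lower in each cold library (-0.37 ± 0.11). Over all genes tested in spleen, the groups did not overlap for 16%. Clock had 0.16 ± 0.08, Cry1 0.22 ± 0.10, Per1 -0.04 ± 0.09, Per2 -0.20 ± 0.17 and Cry2 -0.01 ± 0.12. In the same libraries the bone marrow markers Elane, Mpo and Prtn3 summed to 30.5 to 52.4 CPM at 22 °C and 3.49 to 8.69 at 10 °C (adjusted p = 0.0255 for Mpo), and their part was not tested. Pancreas markers were at 16.9, 740 and 91.6 CPM at 22 °C and 452, 14.8 and 1475 at 10 °C, a part not tested either. With each of 6 libraries left out in turn, Npas2 stayed past the authors' limits (0.66 to 0.84).

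In bone marrow, with 6 mice a group, 3 of 7 genes tested were called, against 19% of all genes, and each difference was small. Arntl was at 22.5 (lowest), 28.4 (median) and 30.6 (highest) CPM at 22 °C and 29.1 (lowest), 32.97 (median) and 35.99 (highest) at 10 °C. The groups overlapped, and Arntl rose by 0.24 ± 0.07 (1.18-fold, adjusted p = 0.0348). Per2 was at 22.1 (lowest), 26.4 (median) and 26.9 (highest) CPM at 22 °C and 17.4 (lowest), 20.9 (median) and 22.7 (highest) at 10 °C. It fell by 0.32 ± 0.07 on the log2 scale (adjusted p = 0.0105) and stayed called in each of 12 fits with a mouse left out. Cry1 fell by 0.19 ± 0.06 (adjusted p = 0.0429), against its direction in fat, and lost its call in 9 of 12 such fits, Arntl in 6 of 12. Clock (-0.07 ± 0.08), Per1 (-0.01 ± 0.13), Per3 (-0.11 ± 0.08) and Cry2 (0.11 ± 0.08) overlapped. None of the 7 passed the authors' limits, which 1.29% of all genes did. Npas2 was under the limit for testing, with 0.122 (lowest), 0.424 (median) and 0.591 (highest) CPM at 22 °C and 0.662 (lowest), 0.873 (median) and 1.28 (highest) at 10 °C, so that all 6 cold mice lay above all 6 controls at under 1.5 CPM. Among the genes that were tested in bone marrow, 6% had groups without overlap.

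In quadriceps all 8 genes had an unadjusted p under 0.05 at 10 °C and 0 of 8 passed the adjusted test in edgeR, against 0.338% of all genes, while the exact test called 0 and DESeq2 1 (Cry1). By the authors' limits 5 of 8 passed, against 3.32%. These values rest on which controls are used. The column names give 3 of the 6 controls the prefix of the 10 °C libraries and 3 that of the 34 °C libraries, and the control sets differed from each other. Arntl was at 38.9, 25.5 and 23.9 CPM in the controls with the cold prefix, 9.497, 11.6 and 16.5 in those with the warm prefix and 42.6, 36.1 and 39.4 at 10 °C. The cold libraries lay within or just above the range of the cold-prefix controls and far above the warm-prefix ones. Against all 6 the difference was 0.92 ± 0.36, and against the 3 of the same prefix 0.44 ± 0.19.

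Npas2 was at 2.36, 1.81 and 1.02 CPM in the cold-prefix controls, 0.391, 0.236 and 0.786 in the others and 4.18, 4.48 and 2.43 at 10 °C. It kept the authors' limits with either control set (1.77 ± 0.56 against 6, 1.12 ± 0.37 against 3), the only one of the 8 to do so, where 3.83% of all genes passed them in the smaller comparison. Per2 was at 3.06, 7.37 and 11.8 CPM, 22.7, 26.3 and 12.5 CPM and 2.702, 3.65 and 5.66 CPM in the same order, with -1.8 ± 0.58 against 6 and -0.87 ± 0.46 against 3. Per1 went from -1.51 ± 0.48 to -0.66 ± 0.30 and Per3 from -0.98 ± 0.42 to -0.38 ± 0.39. The signs of the 8 genes were alike in both comparisons, positive for Arntl, Clock, Npas2 and Cry1 and negative for the Per genes and Cry2. Against all 6 controls, Clock had 0.52 ± 0.17, Cry1 0.42 ± 0.11 and Cry2 -0.48 ± 0.15. Without the control that held pancreas markers, one of the cold prefix, 0 of 8 genes passed the adjusted test (1.14% of all genes did) and 5 the authors' limits (3.41%), with Arntl at 1.19 ± 0.29 and Per3 at -1.18 ± 0.24. The brown fat markers were at 21.7 to 86.6 CPM in the 6 controls and 65.1 to 232 at 10 °C, with a mean of 1.45 and 80.9 CPM of Ucp1. Epididymis markers were at 159.6 CPM in 1 cold library and at 0 in the 8 others of this comparison. The part of these markers was not tested.

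The central nervous system showed small differences. In brain 0 of 8 genes passed the adjusted test in edgeR (0% of all genes did), 1 had an unadjusted p under 0.05, and the exact test and DESeq2 called 0. That gene was Per1, at 31.2, 20.3 and 35.04 CPM at 22 °C and 41.4, 48.5 and 45.6 CPM at 10 °C (0.64 ± 0.21, past the authors' limits with 2.71% of all genes). The lowest value, 20.3, belongs to the library with liver markers, and without it the difference was 0.44 ± 0.09 (adjusted p = 0.0851). The immediate early markers, of which Per1 is not one, summed to 100.1 to 127 CPM at 22 °C and 191 to 236 at 10 °C in the same libraries, and their part was not tested. The other 7 genes had differences of -0.14 to 0.20 (Clock and Per2), and of -0.18 to 0.28 (Npas2 and Per2) without that library. Then 2 genes, Per1 and Per2, had an unadjusted p under 0.05, and 0 of 8 passed the adjusted test (0.122% of all genes did) or the authors' limits (0.801%).

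In hypothalamus, with the master clock within the tissue, 0 of 8 passed the adjusted test in edgeR (0% of all genes) and 0 the authors' limits (0.578%), 2 had an unadjusted p under 0.05, and the exact test and DESeq2 called 0. Those 2 were activators. Arntl was at 46.4, 38.9 and 41.3 CPM at 22 °C and 53.98, 46.8 and 51.7 CPM at 10 °C, every cold library just above every control (0.27 ± 0.08, adjusted p = 0.718), and Clock had 0.12 ± 0.05. For 11.9% of all genes tested in hypothalamus the groups did not overlap. Per3 was at 107, 120.1 and 113 CPM at 22 °C and 113, 112 and 104 CPM at 10 °C, high and without a shift (-0.05 ± 0.06). The other 5 genes had differences of -0.06 ± 0.08 (Per1) to 0.17 ± 0.09 (Cry1).

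In spinal cord, with 5 mice a group, Cry1 stood apart from the others. It was at 14.6, 14.99, 14.9, 14.8 and 13.9 CPM at 22 °C and 19.9, 18.3, 17.8, 19.2 and 21.1 CPM at 10 °C, a clear gap between the groups (0.40 ± 0.06, 1.32-fold, adjusted p = 0.0672 in edgeR), where 1.65% of all genes tested had groups without overlap. Thus 0 of 8 passed in edgeR, where 0.00695% of all genes did, and 0 passed the authors' limits (0.271%), while 4 had an unadjusted p under 0.05, and the exact test and DESeq2 each called 1, Cry1. Without 10 °C replicate 4, in which Clock, Npas2 and Cry2 lay outside the range of the other cold libraries, the difference in Cry1 was 0.40 (adjusted p = 0.0518). The differences of the other 7 genes were -0.07 (Clock) to 0.22 (Arntl), and -0.03 (Per3) to 0.24 (Arntl) without that library. Immediate early markers were at 43.1 to 55.9 CPM at 22 °C and 72.2 to 78.97 at 10 °C, a part that was not tested.

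At 34 °C, 2 of 37 gene and tissue pairs were called, against 5.79% of all such pairs, both in iBAT, where they were 2 of 7 genes tested against 28.9% of all genes, and the same 2 passed the authors' limits (19.4%). Clock was at 53.4, 45.5 and 57.5 CPM at 22 °C and 30.03, 32.4 and 25.6 CPM at 34 °C, the groups well apart, and fell by 0.81 ± 0.12 on the log2 scale (1.76-fold lower, adjusted p = 0.00443). Groups did not overlap for 48.4% of all genes tested in iBAT at 34 °C. Cry2 was at 60.6, 53.6 and 58.5 CPM at 22 °C and 92.8, 115 and 106 CPM at 34 °C. It rose by 0.88 ± 0.10 (1.84-fold, adjusted p = 0.00217), and both calls held in 6 of 6 fits with a library left out. Neither gene had been called in the iBAT of the cold experiment, and the share of members called at 34 °C is close to the background share. The brown fat markers were at 10045 to 13352 CPM at 22 °C and 5668 to 6856 at 34 °C in these libraries, and their part was not tested. Arntl, at 2.77, 1.42 and 5.51 CPM at 22 °C and 3.42, 3.197 and 0.672 CPM at 34 °C, overlapped (-0.39 ± 0.66), and Per3, at 104, 72.5 and 71.6 CPM at 22 °C and 99.3, 91.2 and 169.6 CPM at 34 °C, did too (0.55 ± 0.26). Per1 had 0.56 ± 0.26, Per2 0.48 ± 0.45 and Cry1 0.14 ± 0.27. Npas2 was too low to test in iBAT, liver and quadriceps.

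In the other 4 tissues 0 genes were called at 34 °C by edgeR's quasi-likelihood or exact test or by DESeq2, against 0.385% of all genes in liver and 0% in the remaining 3 tissues by the first of these. None passed the authors' limits, against 3.38% of all liver genes, 2.83% of those in ileum, 1.25% in quadriceps and 0.193% in brain. At an unadjusted p under 0.05 there were 1 of 7 in liver (Cry2, 0.33 ± 0.14), 0 of 8 in ileum, 2 of 7 in quadriceps (Clock, -0.49 ± 0.19, and Cry2, 0.43 ± 0.15) and 1 of 8 in brain (Per1, -0.38 ± 0.11). Over the genes tested, differences ran from -0.32 (Clock) to 0.59 (Per3) in liver, -0.57 (Cry1) to 0.88 (Per3) in ileum, -0.77 (Arntl) to 0.59 (Per2) in quadriceps and -0.38 (Per1) to 0.10 (Cry1) in brain. With the 3 controls of the warm prefix alone, Clock in quadriceps was at -0.38 ± 0.20 and Cry2 at 0.26 ± 0.16. Without the control that held pancreas markers they were at -0.54 ± 0.19 and 0.38 ± 0.14. The intervals are wide where libraries of a group differ. In ileum at 34 °C, Arntl was at 49.5, 15.5 and 6.93 CPM, and Per3 in the same libraries, in the same order, at 8.58, 35.02 and 71.04 CPM. The library with the most Arntl had the least Per3. The joint fit of the 5 warm tissues found 0 of 8 genes whose 34 °C effect differed among tissues (11.9% of all genes), and 0 of 8 for liver against the mean of the other 4 (0.397%), with 0 at an unadjusted p under 0.05 in both, in edgeR, the single tool run.

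The effects of 10 °C and 34 °C, each against its own controls, were also set against each other. This compares separate experiments that differed in mouse supplier and, outside quadriceps, in library kit, sequencing site and age in the labels. For quadriceps at 10 °C the sources differ on the kit. In iBAT the difference passed the adjusted test for 5 genes, against 30.3% of all genes. It was -1.93 ± 0.33 for Per3 (adjusted p = 0.00151), -1.55 ± 0.43 for Per1 (0.0183), 1.14 ± 0.38 for Cry1 (0.0392), 0.92 ± 0.19 for Clock (0.00435) and -0.72 ± 0.22 for Cry2 (0.0295). On leaving out 1 library the iBAT count was 3 to 5, with 3 in 4 of 12 fits (without 22 °C replicate 2, 10 °C replicate 2 or 3 of the cold experiment, or 1 of the 34 °C libraries). In 5 of the 7 genes tested at both temperatures in iBAT the effects had opposite signs. In quadriceps, where the controls are shared and the comparison is of the 10 °C with the 34 °C libraries, Clock (1.0 ± 0.20), Cry1 (0.50 ± 0.12) and Cry2 (-0.91 ± 0.17) passed against 3.50% of all genes. The quadriceps count was 0 to 6 on leaving out 1 library, with 0 in 4 of 12 fits (without 10 °C replicate 1 or 2, or either of 2 of the 34 °C libraries) and 6 without the control that held pancreas markers. With each group set against the controls of its own prefix, the differences were 0.80 for Clock, 0.27 for Cry1 and -0.55 for Cry2 and none passed (adjusted p = 0.294, 0.463 and 0.317). In liver, ileum and brain 0 of the members tested passed in edgeR, the single tool run, against 0.0455% of all genes in liver and 0% in ileum and brain, and 1 in each had an unadjusted p under 0.05, Cry2 in liver, Cry1 in ileum and Per1 in brain. The count stayed at 0 in these 3 tissues with each library left out in turn.

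**Figure D3:**
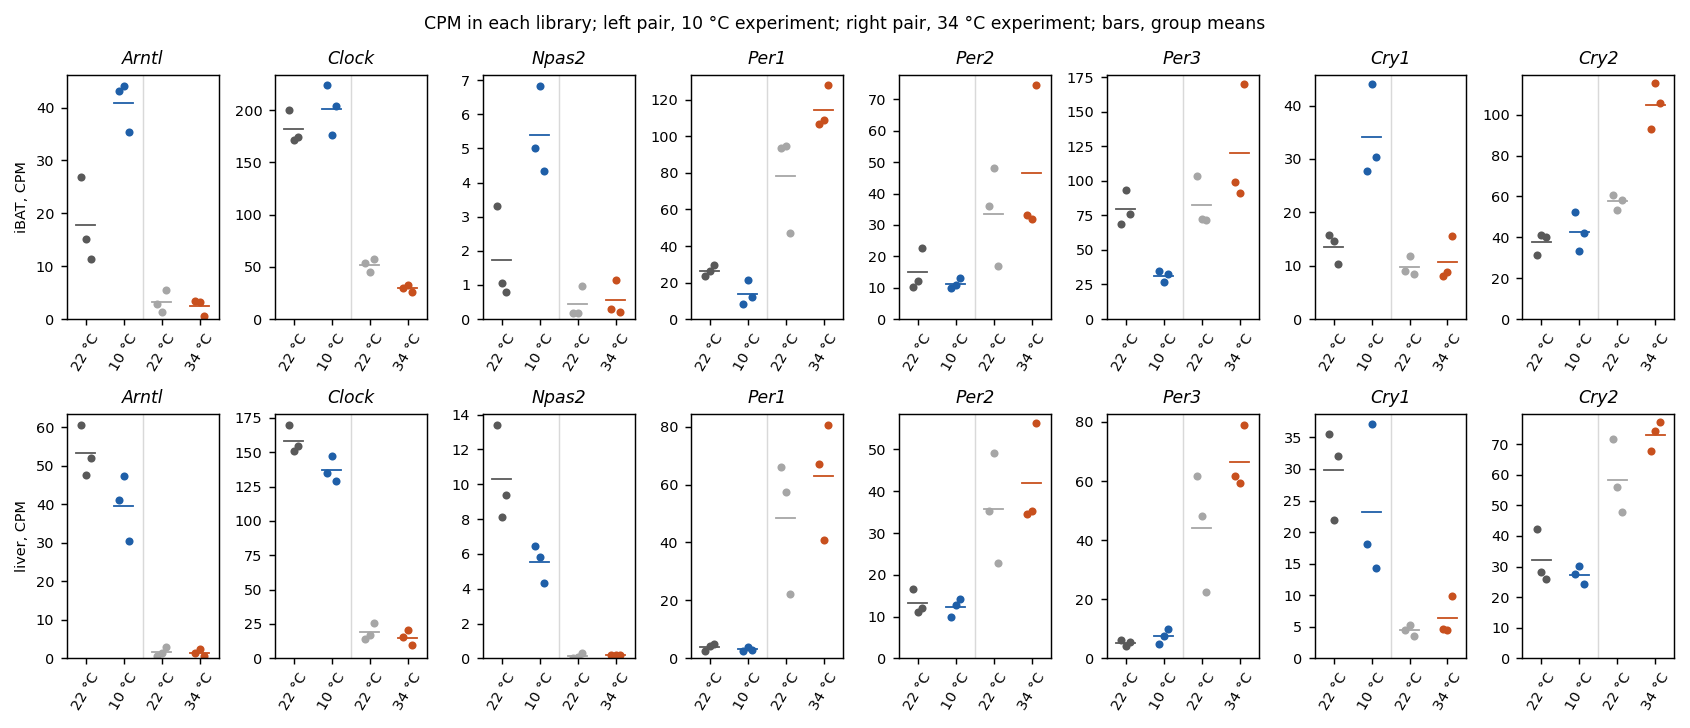
CPM of the 8 clock genes in every library of iBAT and liver, for the 22 °C and 10 °C libraries of the cold experiment and the 22 °C and 34 °C libraries of the warm experiment. In liver, Arntl is at 47.6 to 60.5 CPM in the 22 °C libraries of the cold experiment and 0.586 to 2.91 in those of the warm experiment, a wider gap than either temperature made.

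The controls of the experiments were far apart. In liver at 22 °C, Arntl was at 60.5, 47.6 and 51.98 CPM in the cold experiment and 0.586, 1.31 and 2.91 in the warm one, and Npas2 at 13.4, 8.101 and 9.38 and 0.0234, 0.0546 and 0.320. Per3 ran the other way, at 6.33, 4.14 and 5.43 and 61.8, 48.2 and 22.5 CPM. In iBAT, Arntl was at 26.8, 15.2 and 11.3 CPM and 2.77, 1.42 and 5.51 CPM. Mouse supplier, age in the labels, kit, sequencing site and hour of collection cannot be told apart here, so levels are compared only within an experiment.

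The ratio of Arntl to Per3 counts in a library needs no scaling between libraries, and it set the 22 °C and 10 °C fat libraries apart. On the log2 scale it was -2.74 to -1.36 in iBAT at 22 °C and 0.11 to 0.74 at 10 °C. In ingSAT it was -2.78 to -0.78 at 22 °C and 0.02 to 0.58 at 10 °C, and in pgVAT -3.35 to -1.72 and -1.04 to 0.11. The cold libraries had more Arntl relative to Per3 in all 3 depots, with no overlap. In spleen it was 0.50 to 0.84 and 1.18 to 1.42, also without overlap. In liver the ratio was 3.25 to 3.51 at 22 °C and lower, 1.59 to 3.05, at 10 °C, so that its median was the highest of the cold table at 22 °C and second to ileum at 10 °C (ileum 1.91 to 2.89 at 22 °C and 2.77 to 3.34 at 10 °C). Brain (0.37 to 1.47 and 0.54 to 0.80, with 0.37 and 0.85 at 22 °C without the library with liver markers) and spinal cord (-2.04 to -1.14 and -1.41 to -1.18) overlapped. In the warm experiment the ratio in liver was -6.69 to -2.94 at 22 °C and -7.2 to -4.55 at 34 °C, and in iBAT -5.66 to -3.7 and -7.95 to -4.83, so all of these libraries had far less Arntl than Per3. In quadriceps it was -0.47 to 2.0 in the cold-prefix controls and -2.6 to -1.04 in the warm-prefix ones, 0.88 to 1.5 at 10 °C and -3.33 to -1.16 at 34 °C. The ratio is a description of members already tested singly and has no test of its own. How many other gene pairs would lie apart in these libraries was not counted.

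**Figure D4:**
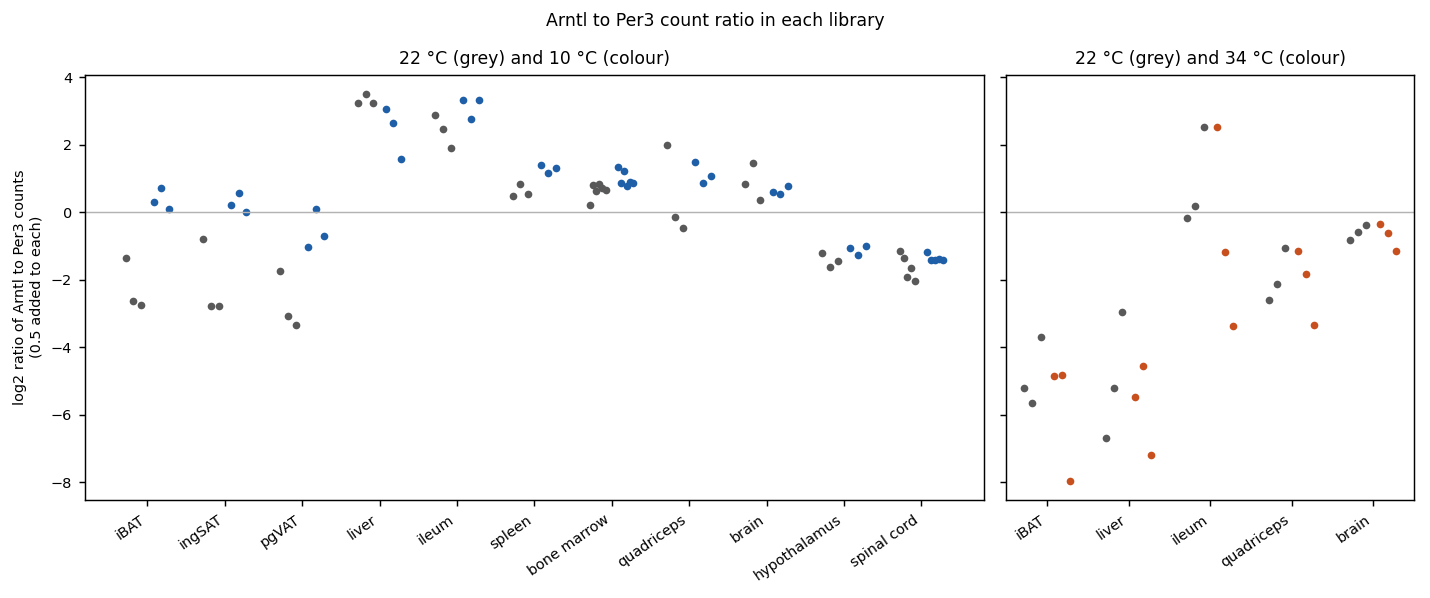
Log2 ratio of Arntl to Per3 counts in each library, by tissue, for the cold experiment (22 °C and 10 °C) and the warm experiment (22 °C and 34 °C), with quadriceps controls placed by the prefix of their column. The iBAT points lie at -2.74 to -1.36 at 22 °C and 0.11 to 0.74 at 10 °C, those of liver at 3.25 to 3.51 and 1.59 to 3.05, and the liver and iBAT libraries of the warm experiment all lie far below 0.

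Libraries with the same number shared some of their order across the 8 tissues of the cold table. At 22 °C, the library numbered 1 had the highest Arntl of its group in 7 of 8 tissues, and the one numbered 3 the lowest in 6 of 8. At 10 °C, number 3 had the lowest Arntl in 7 of 8 tissues and number 2 the highest Per1 in 8 of 8. Whether libraries of the same number share mice, or the hour at which tissue was taken, is not given in the sources used here, and this order was picked out after the values were seen.

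The level of each gene across tissues at 22 °C was compared within the cold table, on TMM-scaled CPM over all tissues. Cry2 had its highest mean in brain (104 ± 26.1 CPM, SD, n = 3; 16.4 CPM per kb of exon; 119 without the library with liver markers) and its lowest in spleen (12.8 ± 1.02), an 8.14-fold range. Per3 was highest in pgVAT (124 ± 16.1), followed without a gap beyond the libraries' ranges by ingSAT, iBAT and hypothalamus (92.1 ± 4.84), and lowest in liver (9.69 ± 1.99), 12.8-fold lower than in pgVAT. Per1 had the same ends, 46.2 ± 18.2 in pgVAT and 7.21 ± 2.43 in liver. Npas2 was high in brain (33.9 ± 14.3) and ileum (32.1 ± 2.61), whose ranges overlapped with the library with liver markers and did not without it (36.9 to 46.5 and 30.3 to 35.2), and near 1 to 2 CPM in spleen (1.47 ± 0.190) and iBAT (2.08 ± 1.62). Per2 varied least, with 2.53-fold between ileum and spleen, and all 7 pairs of neighbours in its order overlapped.

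The place of liver depended on the scaling. With TMM over all tissues, liver was first of 8 for Arntl (97.6 ± 11.5 CPM), Clock (289.9 ± 16.8) and Cry1 (54.6 ± 12.8), and by library size alone its rank was 2, 6 and 3 (54.6, 162 and 30.5 CPM). It was last for Per1 and Per3 by both. Per length, liver in the cold experiment held 21.1 CPM per kb of Clock, 16.3 of Cry1, 12.97 of Arntl, 3.93 of Npas2, 1.28 of Per1 and 1.01 of Per3. In the warm table liver was last of 5 tissues for Arntl (2.34 ± 1.72 CPM), Clock, Npas2 and Cry1 by both scalings, and of rank 1 by TMM but 3 by library size for Per2 and Per3 (65.1 ± 30.02 CPM of Per3). In bone marrow, which has a table of its own, Arntl was at 27.8 ± 3.02 CPM, and in spinal cord at 19.98 ± 3.07 CPM (SD, n = 6 and 5).

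Of 20 other clock genes, 15 of 206 gene and tissue pairs passed the adjusted test at 10 °C, 5 higher and 10 lower, against 3.31% of all such pairs, and 38 passed the authors' limits, against 4.94%. In iBAT there were 6 of 20, 2 higher and 4 lower, where 11.4% of all genes were called. Bhlhe40, a repressor that competes for E-boxes, rose by 2.22 ± 0.16 (47.3 to 223 CPM, means of 3). Dbp fell by 2.22 (23.4 to 5.06 CPM), Nr1d2 by 1.13 and Tef by 0.82 on the log2 scale. Usp2, outside the naming rule, fell too (-0.86 ± 0.18). In ingSAT, Dbp (-2.71 ± 0.48), Nr1d1 (-1.66 ± 0.31) and Tef (-1.11 ± 0.23) fell. Nr1d1 fell in ileum (-2.06 ± 0.23, 23.6 to 5.68 CPM) and Dbp in quadriceps (-2.51 ± 0.42 against all 6 controls). In liver, named after their values were seen, Dbp had 2.11 ± 0.52 and Nr1d1 0.86 ± 0.44, neither past the adjusted test (adjusted p = 0.119 and 0.327). Usp2 had -0.98 ± 0.31 there (adjusted p = 0.159), the same sign as in iBAT. Of the 17 genes of the list tested in liver, 8 had positive and 9 negative differences. In bone marrow Btrc (0.31 ± 0.06) and Timeless (0.19 ± 0.05) rose and the kinase gene Csnk1e fell (-0.19 ± 0.04). At 34 °C, 3 of 91 pairs were called, against 5.79% of all such pairs, all higher and all in iBAT, where 28.9% of all genes were called, among them Timeless (0.97 ± 0.18) and Csnk1e (0.49 ± 0.12).

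The median absolute log2 fold change of the 8 genes was 1.08 in iBAT, 0.92 in pgVAT, 0.86 in ingSAT, 0.37 in ileum and 0.36 in liver at 10 °C. Over all genes tested it was 0.22, 0.31, 0.31, 0.14 and 0.14. In quadriceps it was 0.95 against 0.13 over all genes, with all 6 controls, in spleen 0.21 against 0.12, in spinal cord 0.11 against 0.07 and in bone marrow 0.11 against 0.11. In hypothalamus and brain it was 0.09 and 0.14, against 0.06 and 0.18 over all genes. The spread of single genes grows with lower counts, and no test was made of the list.

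Within tissues, members varied together across the 106 libraries, after each table's tissue means were taken off the log2 CPM values. Arntl correlated at -0.81 with Per3, -0.76 with Per2, -0.68 with Per1 and 0.58 with Clock (Pearson's r). The Per genes correlated with each other at 0.69 (Per1 and Per2), 0.69 (Per1 and Per3) and 0.74 (Per2 and Per3). Cry1 stood between the groups, at 0.38 with Arntl and -0.44 with Per3. Among 10393 genes, those most like Per3 were Tef (0.91), Dbp (0.85) and Nr1d2 (0.80), those most like Arntl Dtx4 (0.70), Leo1 (0.67) and Nfil3 (0.65), and those most like Clock Crk (0.74), Papola (0.73) and Usp34 (0.73). Per1 was most like Per3, Per2 and Usp2 (0.64), and Per2 like Per3, Per1 and Cry2 (0.65). The nearest to Cry1 were Sbk1 (0.65), Pmvk (0.63) and Zc3h8 (0.63), and to Cry2 Stk35 (0.65), Per2 and Ccdc85b (0.63). Npas2 was too low in some tables for this comparison. Libraries shared temperature, mice and depth, and the values describe these libraries only.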

How the data were processed

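RNA-seq of whole tissues gave 106 libraries in 31 groups, taken from the deposited labels. The authors mapped reads with STAR to mm10 and counted them per gene with HTSeq, and the deposited values are raw counts with no normalisation. The processing notes in the labels name STAR 2.5.3a, HTSeq 0.6p1 and Picard 1.141, and the methods name later releases of STAR and HTSeq. The table of 8 tissues was sequenced at another site than the rest and with another library kit than bone marrow, spinal cord and the warm experiment. For quadriceps at 10 °C the labels and the methods differ on the kit. Whether the counting of the 8-tissue table used strand is not given in the sources used here. Its Ensembl identifiers were matched to symbols for 21583 of 21647. Tables were normalised and tested separately, and a set of symbols named in both tables was used where an effect at 10 °C was set against one at 34 °C.

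Each tissue was fitted with edgeR 4.0.16 (R 4.3.3) on the counts, after TMM scaling and keeping genes whose average log2 CPM exceeded 0, by the quasi-likelihood F-test (two-sided), Benjamini-Hochberg adjusted over all genes tested. The SE of a log2 fold change was its size divided by the square root of F. Joint fits gave the interaction of tissue and temperature, liver against the mean of the other tissues, and the effect at 10 °C minus that at 34 °C. Quadriceps was tested against all 6 controls at 22 °C, and against the 3 of the same column prefix as an alternative chosen after seeing the data. Alternatives were edgeR's exact test, DESeq2 1.42.0, library size without TMM, other filters on low counts, the replicate number as a block, 1 fit over 8 tissues, and leaving out each library. From the joint fits over tissues only liver libraries and a brain library were left out. Scripts were tested on simulated data. Depth was 4262403 to 62880248 counts a library, so a gene at 1 CPM had few counts in the shallowest, and no 2 libraries of a group were identical in any of 143 pairs. Precision rests on the spread between 3 to 6 libraries a group.

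The 8 genes, the list of 20 other clock genes and the marker lists were chosen with earlier results of these data known. The 8 genes were tested in each comparison where counts allowed, and the smaller differences are given as ranges. Of the other clock genes, up to 4 called genes with the smallest p were named in each comparison, and for each of the 8 the 3 genes most correlated with it. Some genes that this rule takes are not reported here. Promoter sequences came from RefSeq (GRCm38.p6) and gene positions from GENCODE.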

Additional observations from a re-analysis of the deposited data

Results flagged for a closer look

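Each gene was checked in each group of 4 to 10 libraries, which made 40 pairs of gene and group. In 3 of these, 1 library lay far outside the others by Dixon's criterion, which chance meets in about 1 in 20 pairs. Genes of the same library are not independent of each other. All 3 were the same library, spinal cord at 10 °C replicate 4, with 71.8 CPM of Clock (next 102.8), 9.51 CPM of Npas2 (next 14.8) and 133 CPM of Cry2 (next 114.2).

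The effect of 10 °C differed among the 8 tissues of the cold table for 7 genes by the interaction test in edgeR, with adjusted p-values of 0.000561 (Per3), 0.00111 (Cry1), 0.00861 (Per2), 0.0163 (Arntl), 0.0191 (Npas2), 0.0209 (Per1) and 0.0250 (Cry2).

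The effects at 10 °C and 34 °C differed from each other for 5 genes in iBAT and 3 in quadriceps. In iBAT the difference in log2 units was 0.92 for Clock, -1.55 for Per1, -1.93 for Per3, 1.14 for Cry1 and -0.72 for Cry2. In quadriceps it was 1.0 for Clock, 0.50 for Cry1 and -0.91 for Cry2. Over all genes, 30.3% passed in iBAT and 3.50% in quadriceps. With each quadriceps group set against the controls of its own prefix, none of these 3 genes passed (adjusted p = 0.294, 0.463 and 0.317 in edgeR). The quadriceps count was 0 in 4 of 12 fits with a library left out.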

How the results depend on the processing

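Of the 87 gene and tissue pairs at 10 °C, 9 were called in the chosen fit, 18 with edgeR's exact test, 21 with DESeq2 and 19 with the 8 tissues of the cold table in 1 fit and the other 3 tissues as before. The cause of these differences was not tested. With library size only, 4 pairs were called at 34 °C in place of 2. With each library left out in turn there were 7 to 10 calls at 10 °C and 2 to 2 at 34 °C, and 21 to 27 and 2 to 7 pairs past the authors' limits. The 7 came without the 34 °C ileum library that had the most Arntl, and there were 4 without 1 of the 22 °C iBAT or 1 of the 34 °C quadriceps libraries. In the joint fits over tissues, only liver libraries and, at 10 °C, 22 °C replicate 2 of brain were left out. Within these fits, genes whose 10 °C effect differed among tissues stayed at 7 to 7, and liver against the other tissues gave 0 to 2. Both questions at 34 °C gave 0 to 0. The libraries of the other tissues were not left out of the joint fits. Effects that differed between 10 °C and 34 °C numbered 8, with 5 to 11 on leaving out 1 library and 5 with quadriceps controls of the same prefix. For 29 single effects called by either rule, no alternative changed the direction, and 51 of 207 fits with a library left out lost the call. The other 95 effects changed sign in 16 of 587 values under other settings and 57 of 656 with a library left out. Low counts limit Npas2, which was under the limit for testing in 4 comparisons.

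With the replicate number as a block, 8 pairs were called at 10 °C, 25 passed the authors' limits, 4 genes differed among tissues and 0 in liver against the rest. Deviations of same-numbered libraries in the groups compared correlated at -0.69 to 0.43 in 10 tissues, and in 0 of them was every pair above 0.1. A correlation over all genes cannot decide whether same-numbered libraries share an hour or order of collection. No paired analysis was possible at 34 °C because the columns carry no matching numbers in the labels. Alternatives planned on the numbering of the quadriceps controls were not run, since the columns carry no such numbers.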
